A study of Mus musculus with 4 samples.

Results

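The genes described here, 10 in number, build or serve the skeletal muscle sarcomere and were followed in whole colons of mice lacking STAP-2 (STAP-2-/-) and of wild-type (WT) mice. They are the heavy chain genes Myh1, Myh2, Myh3, Myh4 and Myh8, the light chain gene Mylpf, Acta1, Tnnt3, Actn3 and Ckm. All 10 were found among the 20832 genes named on the array, through the accession of 13 probes, and the probe with the highest mean log2 processed signal stood for each gene. STAP-2 is a signalling adaptor protein that binds STAT3. There were 2 RNA pools per genotype, each from 3 mice of the C57BL/6J strain aged 14 weeks, and each pool was hybridised to 1 Agilent array. Every mouse of both genotypes had received 1.75% dextran sulfate sodium (DSS) in the drinking water, which damages the lining of the colon, and no untreated colons were analysed here. The duration of DSS is 7 days in one label and 3 days in another and was not settled. Pooling hides the spread between mice, the titles call the pools biological replicates without saying more, and the labels do not describe the allele. How much of the anal canal was taken with each colon is not given in the sources used here.

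Skeletal muscle contracts through sarcomeres, in which myosin heavy chains of the thick filament pull on actin thin filaments anchored at the Z-disc. Each fibre type uses its own heavy chain gene, and embryonic and perinatal chains precede the adult ones. The muscle layers of the mouse colon are smooth muscle, with other actin and myosin genes, while the external anal sphincter and the pelvic floor at the end of the bowel are striated. The genes were chosen by name, with the signals and genotype differences of these same arrays already known (Myh3 had been seen to differ), and the probe of each was selected on its mean log2 signal. Their genotype values are given as descriptions without a test.

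In 5 of the 10 genes (Acta1, Ckm, Actn3, Myh2 and Myh8) the probe was well above background, as flagged by the scanner software, on all 4 arrays. That held for 15156 of all 20832 named genes. Myh3 was well above background on neither STAP-2-/- array and on both WT arrays, and Tnnt3 on STAP-2-/- 1 and WT 2. Myh1, Myh4 and Mylpf were not well above background on any array. The label of skeletal muscle was not borne out as a whole: the adult fast heavy chains Myh1 and Myh4 and the fast light chain were not well above background in any pool.

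Myh1, Myh2, Myh4 and Myh8 lie next to each other on chromosome 11, and the sequences before their starts are shown because Myh2 and Myh8 moved together across the arrays while their neighbours were at background. Acta1, which hardly moved, is shown beside them. Each sequence is the 250 bases before the annotated start, 5′ to 3′ on the strand of the gene, from RefSeq on GRCm38.p6, where 8 of the 10 members had an entry. Capitals mark a 14-base run held by the 4 heavy chain genes, and in Acta1 the CArG box.
Myh2: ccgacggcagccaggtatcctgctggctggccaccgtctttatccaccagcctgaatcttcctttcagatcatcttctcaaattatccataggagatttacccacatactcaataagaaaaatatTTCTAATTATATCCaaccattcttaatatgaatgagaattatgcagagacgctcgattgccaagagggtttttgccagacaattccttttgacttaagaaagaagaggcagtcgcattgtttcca
Myh8: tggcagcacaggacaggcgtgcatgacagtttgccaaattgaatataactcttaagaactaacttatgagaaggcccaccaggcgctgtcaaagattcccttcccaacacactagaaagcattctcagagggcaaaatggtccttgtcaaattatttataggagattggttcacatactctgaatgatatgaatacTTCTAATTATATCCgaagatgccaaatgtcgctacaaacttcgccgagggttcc
Myh1: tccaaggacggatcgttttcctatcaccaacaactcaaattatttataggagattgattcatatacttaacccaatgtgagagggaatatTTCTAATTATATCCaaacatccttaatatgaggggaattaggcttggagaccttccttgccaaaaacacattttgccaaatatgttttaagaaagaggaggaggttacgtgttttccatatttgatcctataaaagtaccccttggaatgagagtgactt
Myh4: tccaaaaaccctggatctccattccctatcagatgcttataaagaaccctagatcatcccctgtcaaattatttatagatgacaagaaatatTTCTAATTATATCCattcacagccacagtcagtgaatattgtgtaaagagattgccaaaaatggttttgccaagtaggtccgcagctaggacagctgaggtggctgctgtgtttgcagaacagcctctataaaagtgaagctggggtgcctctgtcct
Acta1: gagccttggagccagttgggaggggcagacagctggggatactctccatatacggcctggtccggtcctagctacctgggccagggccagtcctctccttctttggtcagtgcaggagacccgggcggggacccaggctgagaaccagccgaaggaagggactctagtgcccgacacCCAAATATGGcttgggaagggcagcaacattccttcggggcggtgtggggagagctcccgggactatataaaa

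The stretches are chr11:67170777-67171026 for Myh2, chr11:67276874-67277123 for Myh8, chr11:67199852-67200101 for Myh1 and chr11:67237562-67237811 for Myh4, all on the plus strand, and chr8:123894776-123895025 on the minus strand for Acta1. The run TTCTAATTATATCC was the longest common to the 4 heavy chain stretches, searched on the plus strand of each. On either strand it was found in 4 of 32851 promoter stretches of the same length, 0.0122%, those of Myh1, Myh2, Myh4 and Myh8. It began 125 bases before the start in Myh2, 54 in Myh8, 160 in Myh1 and 158 in Myh4. Its presence did not divide the genes with signal from those without. The motifs of muscle promoters searched, on both strands, were the E-box CANNTG, the TATA motif TATAAA, the CArG box bound by serum response factor and the motif of MEF2 factors. Among all stretches 66.2% held an E-box, 12.4% a TATA motif, 1.47% a CArG box and 2.92% a MEF2 motif. The MEF2 motif was present once each in Myh1, Myh4 and Myh8 and not in Myh2, and in each it overlapped a TATA motif. The CArG box was present in Acta1, from 73 to 64 bases before the start, and in Myh4, from 104 to 95. Acta1 held 2 E-boxes and Myh8 held 1, from 32 to 27 bases before the start. These matches describe letters in the stretches and no binding was measured.

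Levels are given below on a log2 scale relative to the 75th percentile of the processed signal of the same array. A value of 0 equals that percentile and a difference of 1 is a factor of 2. Levels of different probes are not compared with each other and are only added up in the summed levels of lists. Each sum takes the genes well above background on that array, so the genes added can differ between arrays. The percentile was 2280 and 2348 signal units on the STAP-2-/- arrays, against 2134 and 2215 on the WT arrays. Between 68.4% and 70.5% of spots were well above background, and 2 arrays per genotype limit the precision. All 4 arrays shared 1 slide and 1 scan, per the file headers. Stap2, the missing gene, read -6.63 and -7.72 on the STAP-2-/- arrays, neither well above background, against 2.92 and 2.98 on the WT arrays. Fewer cells of a type and less RNA per cell cannot be told apart in RNA of whole tissue.

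**Figure D1:**
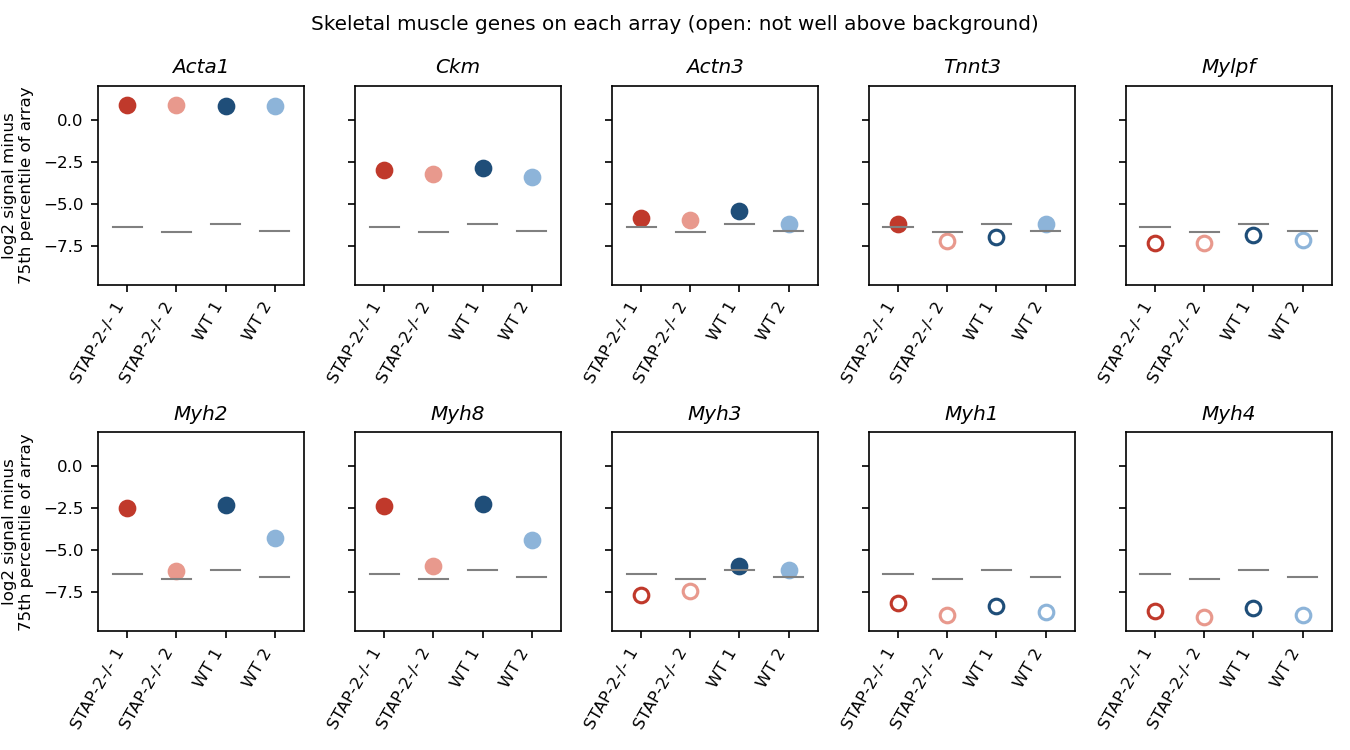
Log2 processed signal minus the 75th percentile of the array (vertical axis) for the 10 genes on the 4 arrays (horizontal axis). Filled points are well above background, open points are not, and each grey line is the lowest signal flagged well above background on that array. Myh2 and Myh8 lie at -6.22 and -5.91 on STAP-2-/- 2, their lowest, against -2.29 and -2.24 on WT 1, their highest, while Acta1 stays between 0.81 and 0.86.

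Among the heavy chain genes, Myh2, which encodes the chain of oxidative fast fibres, read -2.48 in STAP-2-/- 1 and -6.22 in STAP-2-/- 2, against -2.29 in WT 1 and -4.27 in WT 2. The pools of a genotype differed far more than the genotypes, and the groups overlapped. STAP-2-/- 1 was 13.4-fold above STAP-2-/- 2, and WT 1 was 3.93-fold above WT 2. Across the 4 arrays Myh2 spanned 3.93 log2 units, a range that 0.315% of the 15551 genes tested exceeded. The mean was -4.35 ± 2.65 in STAP-2-/- and -3.28 ± 1.40 in WT (SD, n = 2 each), a difference of -1.07 (SE 1.52), which was -0.59 with normexp background correction. That difference was -2.94 without STAP-2-/- 1, 0.80 without STAP-2-/- 2, -0.083 without WT 1 and -2.06 without WT 2.

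Myh8, the perinatal heavy chain gene, read -2.36 and -5.91 in the STAP-2-/- pools 1 and 2, against -2.24 and -4.37 in the WT pools 1 and 2. Again the first pool of each genotype was high, STAP-2-/- 2 was lowest and the groups overlapped. The genotype difference was -0.83 (SE 1.49), and it was -2.61 without STAP-2-/- 1, 0.95 without STAP-2-/- 2, 0.24 without WT 1 and -1.90 without WT 2. After each gene was centred on its own mean, Myh2 and Myh8 differed by a root mean square of 0.15 over the 4 arrays. The second Myh8 probe read -7.66 and -8.97 in STAP-2-/- pools, against -7.72 and -8.75 in WT pools, none well above background. The 2 Myh8 probes therefore disagreed. The genotype difference of the mean of both probes was -0.46. Heavy chain genes are close in sequence, probe sequences were not used here, and whether the Myh2 and Myh8 probes read the same transcript was not tested, so both levels are uncertain as measures of their own gene.

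Myh3, the embryonic heavy chain gene, read -7.66 and -7.43 in STAP-2-/- pools, against -5.91 and -6.19 in WT pools. Both WT pools were above both STAP-2-/- pools, and only the WT signals were well above background. Since the STAP-2-/- signals give only an upper limit, the level in WT is stated as at least 1.41-fold higher, counted from the lowest signal well above background on each STAP-2-/- array. The second Myh3 probe gave -7.56 and -7.53 in STAP-2-/- pools, against -6.01 and -6.29 in WT pools, the same order. These signals lie just above the limit of the arrays, and with normexp background correction the difference was -0.46 in place of -1.50.

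The adult fast chains Myh1 and Myh4 were not well above background on any array, unlike Myh2. Myh1, of intermediate fast fibres, read -8.10 and -8.82 in STAP-2-/- pools, against -8.30 and -8.68 in WT pools. Myh4, of the fastest fibres, read -8.62 and -8.97 in STAP-2-/- pools, against -8.44 and -8.85 in WT pools. Of the other transcripts of the cluster, which are no members, Myh13 was not well above background on any array. The non-coding linc-Myh (2310065F04Rik) between Myh3 and Myh2 read -5.52 and -6.13 in STAP-2-/- pools, against -5.55 and -5.83 in WT pools, and was well above background on all 4. Mylpf, the regulatory light chain of fast myosin, read -7.30 and -7.35 in STAP-2-/- pools, against -6.88 and -7.16 in WT pools, also at background throughout.

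In the thin filament, Acta1, the skeletal alpha-actin gene, read 0.85 and 0.86 in STAP-2-/- pools, against 0.81 and 0.83 in WT pools. It was the steadiest member: 99.2% of the tested genes had a wider range over the arrays. Its groups did not overlap, yet the difference of 0.036 was smaller than its SE of 0.12. Tnnt3, the fast troponin T gene, read -6.20 and -7.18 in STAP-2-/- pools, against -6.96 and -6.21 in WT pools, so each genotype had 1 array well above background and 1 not. The second Tnnt3 probe was not well above background on any array. Actn3, the Z-disc alpha-actinin of fast fibres, read -5.82 and -5.98 in STAP-2-/- pools, against -5.40 and -6.21 in WT pools, with overlapping groups and a difference of -0.092 (SE 0.32). Ckm, the muscle creatine kinase that buffers ATP, read -2.98 and -3.22 in STAP-2-/- pools, against -2.88 and -3.40 in WT pools. Its WT pools enclosed its STAP-2-/- pools, and the difference was 0.038 (SE 0.24).

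The fit held 6 members, and 2 of them had a higher and 4 a lower mean in STAP-2-/- colons, with a median log2 difference of -0.46 against -0.0068 over all genes tested. Myh3 entered that fit through its WT arrays alone, so the median is no measure of a shared shift. With normexp correction the signs of Ckm and Actn3 turned, to -0.0090 and 0.048. Without 1 array the members' median ran from -1.07 (without WT 2) to 0.13 (without WT 1), and leaving out STAP-2-/- 2 gave 0.091, leaving out STAP-2-/- 1 gave -0.78. Groups did not overlap for 1 member with a higher mean (Acta1) and 1 with a lower mean (Myh3). Of all genes tested 11.5% were higher without overlap and 13.3% lower without overlap. The limma test called 0% of genes higher and 0% lower at an adjusted p of 0.05, with a smallest adjusted p of 0.32. Stap2, the missing gene, was in this fit and was not called either, so an absence of calls is no sign of equal levels. In the same fit 2.09% of genes had an unadjusted p under 0.05, so nothing is read from the members' counts.

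Other striated muscle genes, from 6 lists that hold none of the members, were likewise detected in part. Of 82 genes, 81 were on the array, 47 were well above background on all 4 arrays, 7 on some and 27 on none. Of all 20832 named genes, 15156 were well above background on all 4 arrays and 20.8% on none. The genes well above background on no array include the giant spring protein titin (Ttn), the calcium buffer Casq1, the AMP deaminase Ampd1, and the triad protein triadin (Trdn). The muscle acetylcholine receptor subunits Chrna1, Chrnd, Chrne and Chrng were among them too, as were the myogenic factors Myod1, Myog, Myf5 and Myf6 and the satellite cell factor Pax7. The receptor subunit Chrnb1 and the fast fibre genes Tnni2, Tnnc2, Pvalb and Atp2a1 were well above background on all 4 arrays. These detected genes were also named after their values were seen. In all, 8 of 12 myogenic and fusion genes, 4 of 10 junction genes, 5 of 16 giant sarcomere and Z-disc genes and 4 of 12 triad genes were on no array well above background. Among fast fibre genes that held for 3 of 15, and among slow fibre and shared striated genes for 3 of 16. These counts hardly differed between pools: 10 and 10 giant sarcomere and Z-disc genes were above background in STAP-2-/- pools, against 9 and 9 in WT pools. For fast fibre genes the counts were 11 and 12 in STAP-2-/- pools, against 11 and 12 in WT pools.

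**Figure D2:**
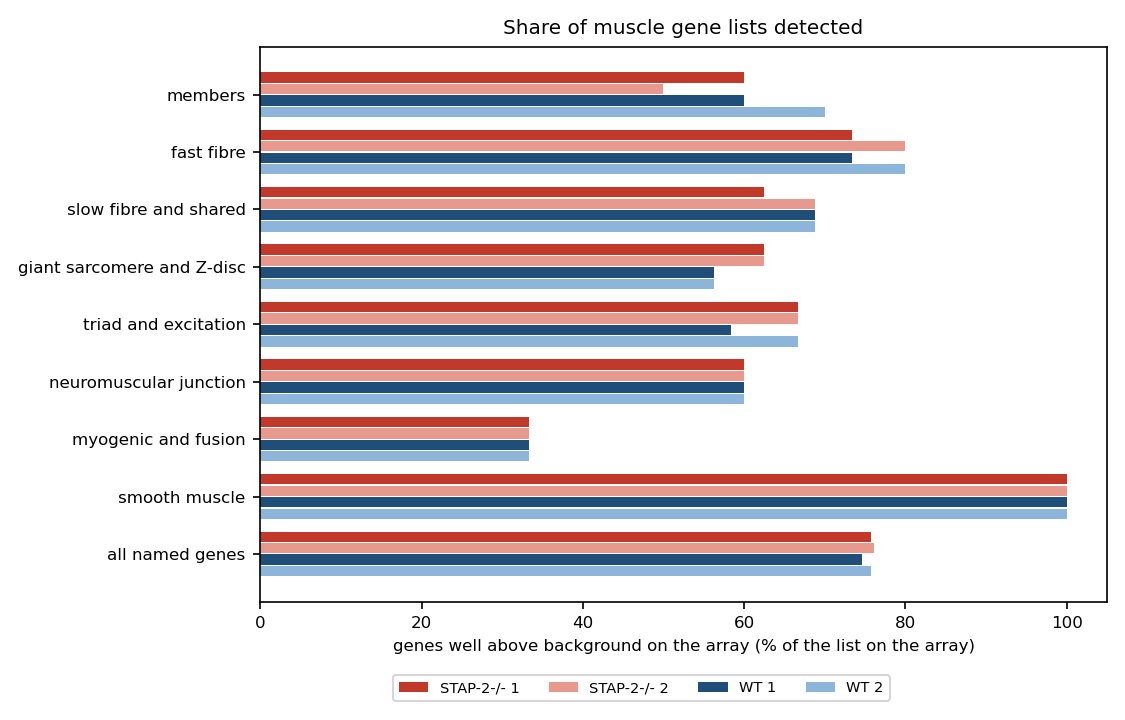
Share of the genes of each list on the array that were well above background (horizontal axis, percent), 1 bar per array. All 18 smooth muscle genes were detected on every array and 33.3% of the myogenic and fusion genes on each, against 74.7% to 76.1% of all named genes.

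Of the 48 genes of these 6 lists that could be tested, limma called 0 at the adjusted threshold of 0.05. In the same fit 2 had an unadjusted p under 0.05, against 2.09% of all genes tested. Those 2 were Ankrd1, a stress-induced ankyrin repeat protein of striated muscle, and Casq2, the cardiac and slow fibre calsequestrin. Of the 48, 28 had a higher and 20 a lower mean in STAP-2-/- colons, with a median log2 difference of 0.041. Over all genes tested 7512 had a higher and 8039 a lower mean. Groups did not overlap for 9 of the 48 with a higher and 7 with a lower mean. Of all genes tested that held for 11.5% and 13.3%. Ankrd1 read -5.60 and -4.95 in STAP-2-/- pools, against -3.54 and -4.48 in WT pools, and every WT pool lay above both STAP-2-/- pools. Casq2 read -2.26 and -2.55 in STAP-2-/- pools, against -2.91 and -2.84 in WT pools, the opposite order. In the giant sarcomere and Z-disc list, the M-band gene Myom2 differed by -0.97 (SE 0.49), the myosin binding protein gene Mybpc1 by -0.61 (SE 0.35), Myot by -0.35 and Lmod3 by -0.26. Among fast fibre genes, Mybpc2 differed by -0.62 (SE 0.27), Tcap by 0.38, Myl1 by -0.26 and Apobec2 by 0.23. In the slow and shared list, Cox6a2 differed by 0.74 (SE 0.35), the slow and cardiac heavy chain Myh7 by 0.71 (SE 0.55) and the cardiac actin Actc1 by 0.68 (SE 0.35). Among triad genes the calcium channel Cacna1s differed by 0.38, Srl by 0.29 and the release channel Ryr1 by 0.27, while Jph2 and Jsrp1 had the widest ranges, 1.37 and 0.99. Among junction genes Colq differed by -0.47, Dok7 by 0.45, Musk by -0.24 and Rapsn by 0.21. The 4 tested myogenic and fusion genes, Pax3, Mef2c, Mymk and Cdh15, differed by -0.13, -0.10, -0.042 and 0.022. Of the 8 tested triad genes 7 had a higher mean, with a median of 0.26 that was 0.017 with normexp correction. Nothing about the genotype is read from these counts or from the genes named under them.

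**Figure D3:**
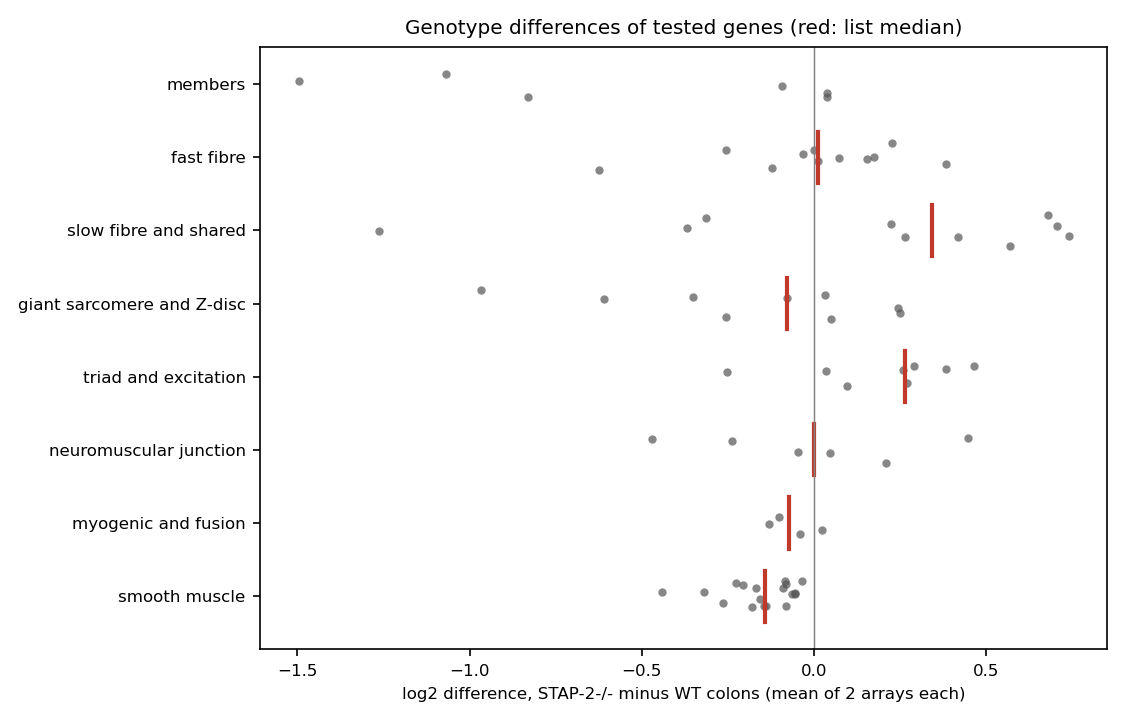
Log2 difference between the mean of 2 STAP-2-/- arrays and the mean of 2 WT arrays (horizontal axis) for each tested gene, by list. Grey points are genes and red lines list medians (none is drawn for the members). Smooth muscle genes lie close together below 0, with a median of -0.14, and the members spread from -1.50 to 0.038.

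Of the 48, 7 spanned over 2 log2 units across the arrays, against 2.54% of all tested genes. Eno3, the muscle enolase, read 4.81 and 1.47 in STAP-2-/- pools, against 3.53 and 2.44 in WT pools. Sln, the sarcoplasmic calcium pump regulator sarcolipin, read -3.11 and -5.87 in STAP-2-/- pools, against -3.78 and -4.46 in WT pools. Tnnt2, the cardiac troponin T gene, read -0.25 and -2.93 in STAP-2-/- pools, against -1.39 and -2.63 in WT pools. Dok7, an activator of the receptor kinase MuSK, read -3.12 and -5.60 in STAP-2-/- pools, against -4.51 and -5.10 in WT pools. In each of these the first pool of a genotype was above the second, as for Myh2 and Myh8. Myot, the Z-disc gene myotilin, ran the other way, at -5.68 and -3.11 in STAP-2-/- pools, against -4.71 and -3.38 in WT pools. Ankrd1, also among the 7, was lower in STAP-2-/- 1 (-5.60) than in STAP-2-/- 2 (-4.95), but higher in WT 1 (-3.54) than in WT 2 (-4.48). Tnni1, named after its values were seen, read 2.54 and 0.12 in STAP-2-/- pools, against 1.39 and 0.73 in WT pools.

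Genes with profiles close to the members were sought among 15140 genes well above background on all arrays, by the root mean square difference of centred log2 values over the 4 arrays. For the median profile of Acta1, Ckm, Actn3, Myh2 and Myh8 the 8 nearest were Ptprt, Sucnr1, Vit, Cnksr2, Gtpbp3, Krt84, Tbx10 and Insig1, at 0.034 to 0.066. That profile varied little, from -0.36 in WT 2 to 0.45 in WT 1. For Myh2 and Myh8 alone, a choice made after seeing their values, the nearest was Cyp2c39 at 0.21. Next came Cyp2c67, 2310034C09Rik, Ctse, Pla2g4f, Hoxb13, Cyp2c68 and Cyp2c37, the last at 0.38. Of these, 4 encode cytochrome P450 enzymes of the 2c subfamily, Ctse the protease cathepsin E, Pla2g4f a phospholipase and Hoxb13 a homeobox factor of the hindmost body. Hoxb13 read 5.63 and 1.63 in STAP-2-/- pools, against 4.91 and 3.74 in WT pools. Cyp2c39 read -1.88 and -5.74 in STAP-2-/- pools, against -2.23 and -4.30 in WT pools. Both place STAP-2-/- 2 far below the other pools, as Myh2 does.

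**Figure D4:**
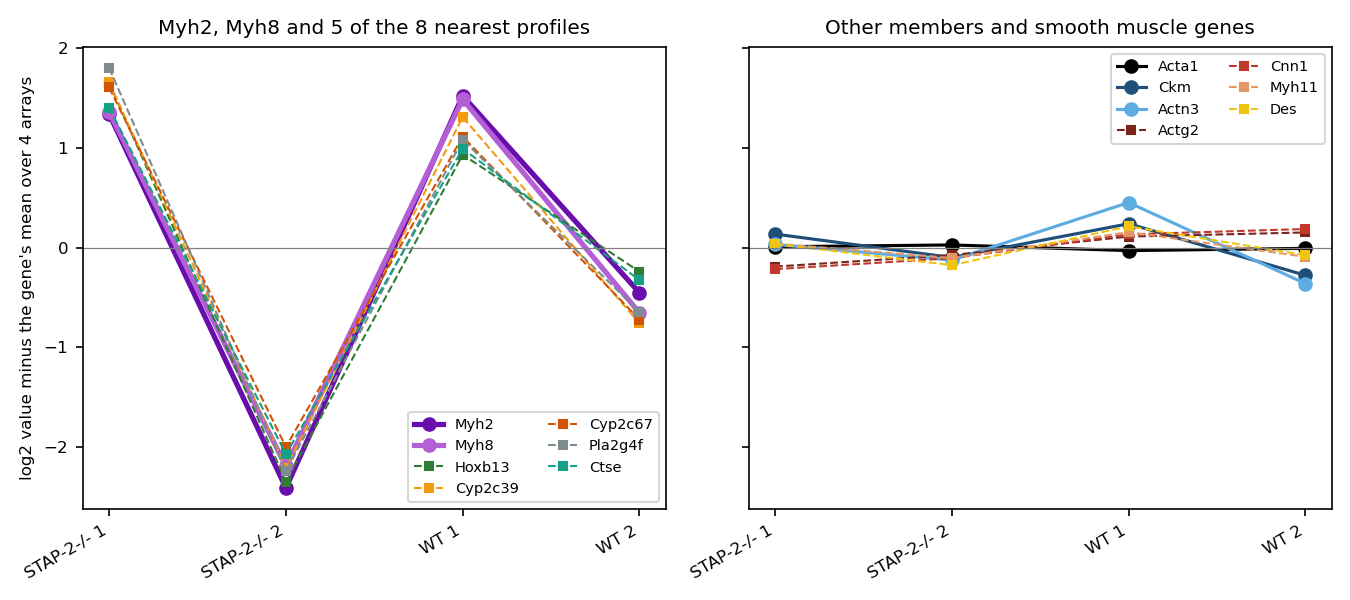
Log2 value minus the mean of the gene over the 4 arrays (vertical axis) on each array (horizontal axis). Lines only link the points of 1 gene. On the left Myh2 and Myh8 (thick lines) and 5 genes with close profiles are lowest on STAP-2-/- 2. On the right Acta1, Ckm and Actn3 and the smooth muscle genes Actg2, Cnn1, Myh11 and Des stay within 0.5 of their mean.

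Some genes that mark the hind end of the gut were lowest in STAP-2-/- 2, as Myh2 and Myh8 were, and others were not. All 7 HOX genes of that list were on the array, 6 were well above background on all 4 arrays, and they are known for patterning the distal gut. Hoxd13 read 1.41 and -5.83 in STAP-2-/- pools, against -0.15 and -2.77 in WT pools. Hoxd12 read -1.41 and -8.71 in STAP-2-/- pools, against -4.04 and -6.24 in WT pools, and the -8.71 was not well above background. Hoxa13 read -0.90 and -2.81 in STAP-2-/- pools, against -0.78 and -1.55 in WT pools. In these genes and in Hoxb13, STAP-2-/- 2 was lowest and pool 1 lay above pool 2 in both genotypes. Only Hoxa13 had the full order of Myh2 and Myh8, with WT 1 highest. In Hoxd13, Hoxd12 and Hoxb13, STAP-2-/- 1 lay above WT 1. Hoxd11 read -2.21 and -4.13 in STAP-2-/- pools, against -3.79 and -4.85 in WT pools. Hoxd10 read -1.52 and -2.42 in STAP-2-/- pools, against -2.63 and -3.10 in WT pools, so that in both WT 2 was lowest. Hoxd9 read -3.83 and -3.68 in STAP-2-/- pools, against -4.03 and -4.11 in WT pools, and hardly varied. The summed level of the list, in multiples of the 75th percentile, was 53.7 and 3.58 in STAP-2-/- pools, against 31.9 and 14.03 in WT pools. In such a sum the brightest probe weighs most. Here Hoxb13 made up most of the sum on every array, so it does not stand for the other HOX genes. On the slide, the pools numbered 1 lay in the first positions and those numbered 2 after them. The part of either in the Myh2 and Myh8 values was not tested.

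Squamous epithelium and skin border the anal sphincter, and their markers were partly detected. Of 18 on the array 10 were well above background on all 4 arrays, and Krt1, Krt4, Ivl, Dsg3, Dsg1a and Sprr1b on none. Their summed level was 7.49 and 6.30 in STAP-2-/- pools, against 7.22 and 6.71 in WT pools. Krt13, a keratin of wet stratified epithelium, read 1.07 and 0.45 in STAP-2-/- pools, against 0.95 and 0.37 in WT pools. Ly6d read -0.58 and -0.28 in STAP-2-/- pools, against -1.04 and 0.60 in WT pools. Krtdap, a keratinocyte gene, had the order of Myh2, at -6.59 and -8.97 in STAP-2-/- pools, against -5.14 and -7.18 in WT pools, but was well above background on WT 1 alone. Of 10 genes of the bladder, prostate and seminal tract, 7 were well above background on no array and 2 on all, with a summed level of 3.19 and 2.75 in STAP-2-/- pools, against 3.10 and 2.34 in WT pools. Fat gave a summed level of 78.8 and 60.9 in STAP-2-/- pools, against 125 and 84.4 in WT pools, over 14 adipocyte genes of which all but Ucp1 were detected on every array. Its widest members were Lep, the hormone leptin, and Plin1, a lipid droplet protein, spanning 2.30 and 1.89. Of the 13 adipocyte genes tested 11 had a lower mean in STAP-2-/- colons, 6 without overlap, with a median of -0.60. In limma 0 were called and 4 had an unadjusted p under 0.05. Of all genes tested 13.3% were lower without overlap and 2.09% had an unadjusted p under 0.05.

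The muscle that the wall is known to hold was measured with little spread. All 18 smooth muscle genes were well above background on all 4 arrays, and their summed level was 476 and 473 in STAP-2-/- pools, against 549 and 544 in WT pools. Their median range over the arrays was 0.29, against 0.42 for all tested genes. Actg2, the enteric smooth muscle actin, read 5.70 and 5.82 in STAP-2-/- pools, against 6.00 and 6.05 in WT pools. Cnn1, the calponin of contractile smooth muscle, read 6.27 and 6.38 in STAP-2-/- pools, against 6.61 and 6.67 in WT pools. Both were lower in each STAP-2-/- pool than in either WT pool. Myh11, the smooth muscle heavy chain, read 2.57 and 2.43 in STAP-2-/- pools, against 2.69 and 2.44 in WT pools, with overlap. Des, the desmin of all muscle, read 2.04 and 1.83 in STAP-2-/- pools, against 2.22 and 1.93 in WT pools, also with overlap. Synm, an intermediate filament protein, differed by -0.44, the light chain Myl9 by -0.23 and the tropomyosin Tpm1 by -0.15. All 18 had a lower mean in STAP-2-/- colons, 8 of them without overlap, and the list median was -0.14. Of the 15551 genes tested, 8039 had a lower mean, 13.3% were lower without overlap and 2.09% had an unadjusted p under 0.05 in limma. None passed the limma test, and 0 of the 18 had an unadjusted p under 0.05. Nerve and glia genes, which lie between the muscle layers, had a summed level of 25.1 and 23.9 in STAP-2-/- pools, against 28.1 and 26.7 in WT pools, and all 15 had a lower mean in STAP-2-/- colons, 8 without overlap and 2 at an unadjusted p under 0.05. Of these the glial gene Gfap had the widest range, 1.80. The genes of a list were read in the same 4 pools and are not independent. Nothing about the genotype is therefore read from the fat, smooth muscle or nerve counts.

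Set side by side, the summed level of smooth muscle transcripts hardly differed between pools of a genotype. It was lower in both STAP-2-/- pools (476 and 473) than in both WT pools (549 and 544). The brightest probes weigh most in that sum, and Myh11 and Des overlapped between genotypes. Of all genes tested 13.3% were lower without overlap, and nothing about the genotype is read from the sum. In no pool were Myh1, Myh4, Mylpf, Ttn, Casq1, Myod1 or Myog, genes of adult striated fibres or their precursors, well above background. By contrast, Acta1, Ckm, Actn3, Myh2 and Myh8 were well above background in every pool. So were 47 of the 81 genes on the array from the 6 other striated muscle lists, and 15156 of all 20832 named genes. These counts are therefore not read as an excess of striated muscle transcripts. Pool 1 was above pool 2 of its genotype in Myh2 and Myh8, and also in Ckm and Actn3, whose whole ranges were 0.52 and 0.81. The counts of members well above background were 6 and 5 in STAP-2-/- pools, against 6 and 7 in WT pools. These 10 genes gave no single order of the pools, so an amount of sphincter muscle per pool is not stated.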

How the data were processed

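Total RNA of entire colons was labelled with Cy3 and read on 1-colour arrays, per the labels' protocols. Agilent Feature Extraction 10.7.1.1 made the deposited scanner files, per the submitters' processing notes. Their processed signal intensity is background-subtracted and detrended within an array, per the file headers, and not scaled between arrays. In the value table that the authors deposited each entry is a ratio: the processed signal over 1 constant per array (within 1% for 99.3% to 99.7% of 22236 brighter probes), with column medians of 0.091 and 0.085 for STAP-2-/- and 0.091 and 0.087 for WT; its scale is linear, it is not centred by gene, and it served as an alternative.

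Control spots were left out, outlier spots set missing and spots of a probe averaged. Of 39429 probes, 27427 were named by matching accessions to RefSeq genes of GRCm38.p6. The design file is annotated on another build, so only promoter stretches carry coordinates. The test took genes whose probe passed the background flag on both STAP-2-/- or both WT arrays (15562 genes, 15551 without missing values). Genotypes were compared with limma 3.58.1 in R 4.3.3, with Benjamini-Hochberg adjustment at 0.05 and no covariate, and SE values are from that fit; the script was tested on simulated data. Tables were handled in Python 3.11.15 (pandas 2.3.3, numpy 2.4.6) and plots drawn with matplotlib 3.10.9. The p-values test a genotype difference against the spread between the 2 pools per genotype, not between mice. In limma the estimate of that spread draws on all genes tested.

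The members and the lists were chosen with earlier results of these data known. Named genes were all members, up to 4 tested genes per muscle list with the largest difference and up to 2 with the widest range, Des, Actg2, Myh11 and Cnn1, the 2 widest of the squamous, fat, HOX and nerve lists, and the 8 genes nearest in profile (1 gene under this rule is not reported here); the other HOX genes, Krtdap, genes near Myh2 and Myh8, undetected genes and cluster neighbours were named after their values were seen. Alternatives were other scalings, normexp correction (on the median signal), looser and stricter detection filters, the value table, probe means, outlier spots retained, a trend with robust fit, the replicate number as a block, and leaving out each array.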

Additional observations from a re-analysis of the deposited data

How the results depend on the processing

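The limma test called 0 genes in every alternative but one: with normexp correction 1 gene passed, the targeted Stap2 (smallest adjusted p 0.00463). Of the list genes outside the members, 0 passed in any alternative. Correlation of deviations between arrays of equal number was 0.596, but 2 pairs cannot show that numbers pair the samples; the fit with the replicate block also called 0 genes, with 399 higher and 641 lower at an unadjusted p under 0.05, against 124 and 201 without it. With normexp the triad list median was 0.017 in place of 0.26. With 1 array left out, medians ran from -0.20 to 0.21 for fast fibre genes, -0.58 to 0.76 for slow fibre and shared genes, 0.16 to 0.20 for triad genes, -0.24 to 0.22 for myogenic genes, -0.11 to 0.22 for squamous genes and -1.65 to 1.34 for HOX genes. The smooth muscle median ran from -0.19 to -0.11 with 1 array left out and from -0.15 to -0.12 over the other alternatives. Over those other alternatives the difference of Myh2 ran from -1.10 to -0.59, that of Myh8 from -0.84 to -0.43 and that of Acta1 from 0.024 to 0.042. Signal over background limits Myh3, Tnnt3 and Actn3, which lie near the lowest signal flagged well above background (-6.70 to -6.19 by array). On STAP-2-/- 2, Myh2 (-6.22) and Myh8 (-5.91) also lie near that lowest signal (-6.70). Their pool ratios and their differences with 1 array left out rest partly on those dim signals.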

Other observations

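Outside muscle, genes of the interstitial cells of Cajal, the pacemaker cells of the gut wall, included some that spanned over 2 log2 units across the arrays (genes named after their values were seen). Ano1, their chloride channel, read 4.66 and 2.53 in STAP-2-/- pools, against 3.86 and 2.89 in WT pools. Thbs4, a matrix thrombospondin, read 4.19 and 1.75 in STAP-2-/- pools, against 4.08 and 3.06 in WT pools. Kit, the receptor that marks these cells, ran the other way, at 0.94 and 1.90 in STAP-2-/- pools, against 1.28 and 1.54 in WT pools. Among colonocyte genes, Aqp8, a water channel, read 6.67 and 4.29 in STAP-2-/- pools, against 6.24 and 5.78 in WT pools.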
